A study of Xenopus laevis with 9 samples.

Results

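Frizzled receptors and the secreted proteins that resemble them were read in tadpole tails of the African clawed frog, Xenopus laevis, with and without thyroid hormone. The family was chosen by name, as every probe set whose annotated symbol is fzd or sfrp plus a number, or frzb. This gave 15 genes of 7531 with a symbol, read by 21 probe sets of 15491, of which 16 probe sets in 10 genes are receptors and 5 probe sets in 5 genes are secreted antagonists. The receptors are fzd1.L, fzd2.S, fzd3.L, fzd4.S, fzd5.S, fzd7.L, fzd8.L, fzd8.S, fzd10.L and fzd10.S, and the antagonists are sfrp1.L, sfrp2.S, sfrp5.L, frzb.L and frzb.S. Family members without such a probe set were not analysed here. The family was proposed from measured values, those of sfrp2.S at T3 6 h against vehicle and those of fzd2.S, so both genes are described without p-values. Where their calls are counted, nothing is read from the counts.

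Frizzled proteins are membrane receptors whose cysteine-rich domain outside the cell binds Wnt ligands. With a co-receptor of the Lrp family they pass the signal to dishevelled and stabilise beta-catenin, or they act through planar polarity and calcium branches. Secreted frizzled-related proteins, including Frzb, carry a similar cysteine-rich domain without a membrane anchor, so they can bind Wnt ligands before these reach a receptor. Frzb was among the secreted Wnt inhibitors described in Xenopus embryos. In the tadpole, thyroid hormone drives metamorphosis, in which the tail is resorbed.

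The groups were tails of stage 54 tadpoles exposed for 48 h to 20 nM T3 (triiodothyronine, the active thyroid hormone), tails exposed for 6 h to 20 nM T3, and tails kept for 48 h in vehicle. The source field of the same samples gives stages 51 to 54. Each group had 3 Affymetrix arrays, each made from a pool of 3 tails, and larvae had been kept 2 to a 500 ml container at 20 C. The labels do not say if pools of 1 group were from different clutches, and errors and p-values cover only the spread between these pools. With all vehicle tails at 48 h, T3 6 h tails differ from them also in time in the container. Values are log2 intensities relative to the array median, so 0 is the median probe set of an array. Arrays give no read depth, and their number limits the precision. Levels of different probe sets were not read as relative amounts of RNA, because probes differ in how brightly they bind. The summed intensities of marker lists given below add different probe sets, so the brightest weigh most in them. The T3 48 h group was the most spread, with correlations between its arrays of 0.966 to 0.980, and T3 48 h array 1 lay nearest to the vehicle arrays on the first principal component (15.2, against 38.8 and 30.6 for arrays 2 and 3). All 5 tested probe sets of known T3-responsive genes (dio3.L, fap.L, mmp11.L, mmp13l.L and mmp13l.S) rose at 48 h against vehicle. At 6 h 0 of 5 passed, with 1 at an unadjusted p under 0.05 in limma. The list of 7 such genes matched 11 probe sets, of which only these 5 were tested. None of the 5 reads thibz, klf9 or thra, which were also on the list. Muscle markers of the tail, among them the creatine kinase ckm.L and troponins, passed the level filter in 16 of 16 probe sets.

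A probe set entered the main test when it lay at or above the array median on at least 3 of the 9 arrays, and 8123 did. In the family 3 of 21 passed, sfrp2.S, fzd2.S and 1 of the 2 probe sets of fzd8.S, and each lay above the median on all 9 arrays. The other 18 lay below it on all 9. Of the 3, sfrp2.S was lower in T3-treated tails at both times, fzd2.S was higher at 48 h than at 6 h with vehicle in between, and fzd8.S showed overlapping groups throughout.

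The antagonist sfrp2.S encodes secreted frizzled-related protein 2, a soluble Wnt-binding protein of mesenchyme and connective tissue. Its values were 2.06, 1.91 and 2.03 on the T3 48 h arrays, 1.34, 1.69 and 1.99 on the T3 6 h arrays, and 3.27, 3.14 and 2.54 on the vehicle arrays. Every T3 value, at 48 h and at 6 h, lay below every vehicle value, and the T3 48 h and T3 6 h values overlapped. The group means were 2.00 ± 0.08 at T3 48 h, 1.67 ± 0.32 at T3 6 h and 2.98 ± 0.39 in vehicle (SD, n = 3). In T3 6 h tails sfrp2.S was 2.48-fold lower than in vehicle tails (log2 -1.31 ± 0.21 SE), and in T3 48 h tails it was 1.98-fold lower (log2 -0.98 ± 0.21 SE). Both differences use the same vehicle arrays. The difference of T3 48 h minus T3 6 h was log2 0.33 ± 0.21, smaller than either. In bulk tissue, fewer cells of a type and less RNA per cell cannot be told apart.

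**Figure D1:**
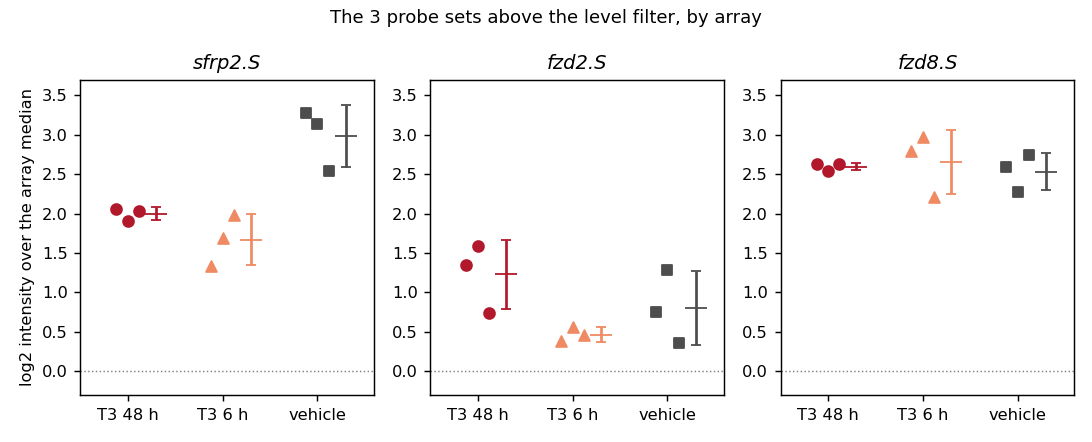
Log2 intensity over the array median (vertical axis) of sfrp2.S, fzd2.S and the fzd8.S probe set that passed the filter on each array. Points are arrays, bars beside them are the mean ± SD of 3 arrays, and the dotted line at 0 is the array median. For sfrp2.S the T3 arrays lie between 1.34 and 2.06, below the vehicle arrays at 2.54 to 3.27.

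At T3 48 h the arrays of sfrp2.S spanned less than those of the other groups, with an SD of 0.08, against 0.32 at T3 6 h and 0.39 in vehicle. Vehicle array 3, at 2.54, was the lowest vehicle array, and without it the differences from vehicle were log2 -1.21 at T3 48 h and -1.53 at T3 6 h. Without vehicle array 1 they were -0.84 and -1.17. Leaving out each of the 9 arrays in turn, the difference from vehicle ran from -1.21 to -0.84 at T3 48 h and from -1.53 to -1.15 at T3 6 h.

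The receptor fzd2.S encodes Frizzled 2, a receptor that in vertebrates is used by Wnt5a-type ligands. Its values were 1.35, 1.60 and 0.74 on the T3 48 h arrays, 0.38, 0.56 and 0.46 on the T3 6 h arrays, and 0.76, 1.29 and 0.35 on the vehicle arrays. The T3 48 h arrays all lay above the T3 6 h arrays, whereas both T3 groups overlapped with vehicle. The means were 1.23 ± 0.44 at T3 48 h, 0.47 ± 0.09 at T3 6 h and 0.80 ± 0.47 in vehicle (SD, n = 3). T3 48 h minus T3 6 h was log2 0.76 ± 0.26 SE, a 1.70-fold difference. The differences from vehicle were smaller, log2 0.43 ± 0.26 at T3 48 h and -0.33 ± 0.26 at T3 6 h, of opposite sign and each within the spread of the vehicle arrays.

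Single arrays moved fzd2.S by more than they moved sfrp2.S. T3 48 h minus vehicle ran between 0.21, on leaving out vehicle array 3, and 0.67, on leaving out either vehicle array 2 or T3 48 h array 3. T3 6 h minus vehicle was -0.09 without vehicle array 2 and -0.56 without vehicle array 3. T3 48 h minus T3 6 h was 0.58 without T3 48 h array 2 and 1.01 without T3 48 h array 3.

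The fzd8.S probe set that passed the filter, for a receptor known from the organizer and anterior tissue of Xenopus embryos, read 2.63, 2.54 and 2.62 at T3 48 h, 2.79, 2.97 and 2.21 at T3 6 h, and 2.59, 2.27 and 2.74 in vehicle. The groups overlapped in all 3 comparisons. T3 48 h minus vehicle was log2 0.06 with a 95% interval of -0.38 to 0.51 (adjusted p = 0.853 in limma). T3 6 h minus vehicle was 0.12, with an interval of -0.32 to 0.57 (adjusted p = 0.806), and T3 48 h minus T3 6 h was -0.06, with an interval of -0.50 to 0.38 (adjusted p = 0.859). Each of the 3 values changed sign when some single arrays were left out. With 3 arrays a group, changes within these intervals are not excluded. The other fzd8.S probe set lay below the array median on every array, at -2.49 to -1.25, so the gene was read differently by its probe sets.

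Of the 3 family probe sets tested, 1 passed the adjusted threshold of 0.05 at T3 48 h against vehicle, where 11.0% of all 8123 tested probe sets passed (4.94% higher and 6.04% lower). Against vehicle 1 of 3 also passed at T3 6 h, where 0.222% of all did (0.172% higher and 0.0492% lower). In both it was sfrp2.S, lower, and nothing is read from these counts because its value was known when the family was proposed. For T3 48 h against T3 6 h limma called 0 of 3, where 19.4% of all probe sets passed the adjusted threshold (7.51% higher and 11.9% lower). An unadjusted p under 0.05 was met by 1 of 3, a share that was not counted over all probe sets. Nothing is read from these counts either, since the values of fzd2.S were also known. Arrays that do not overlap between groups, as for sfrp2.S, occurred in the lower direction in 19.7% of tested probe sets at T3 48 h against vehicle and in 10.5% at T3 6 h against vehicle. For fzd2.S, T3 48 h arrays all above T3 6 h arrays occurred in 13.8% of tested probe sets.

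These counts depended on single arrays. The fits are no test of sfrp2.S or fzd2.S, whose values were known, and show only how the counts moved. The T3 6 h count fell to 0 when vehicle array 1 (log2 of sfrp2.S -1.17) or 2 (-1.23) was left out, and likewise for T3 6 h array 1 (-1.15), 2 (-1.32) or 3 (-1.47) and for T3 48 h array 2 or 3 (both -1.31, where only the estimate of the spread changes). At T3 48 h the count fell to 0 when vehicle array 1 (-0.84) or 2 (-0.90) or T3 48 h array 2 (-0.94) or 3 was left out. Between both times the count became 1, with fzd2.S, on leaving out vehicle array 2 or 3 (both 0.76) or T3 48 h array 3 (1.01).

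**Figure D2:**
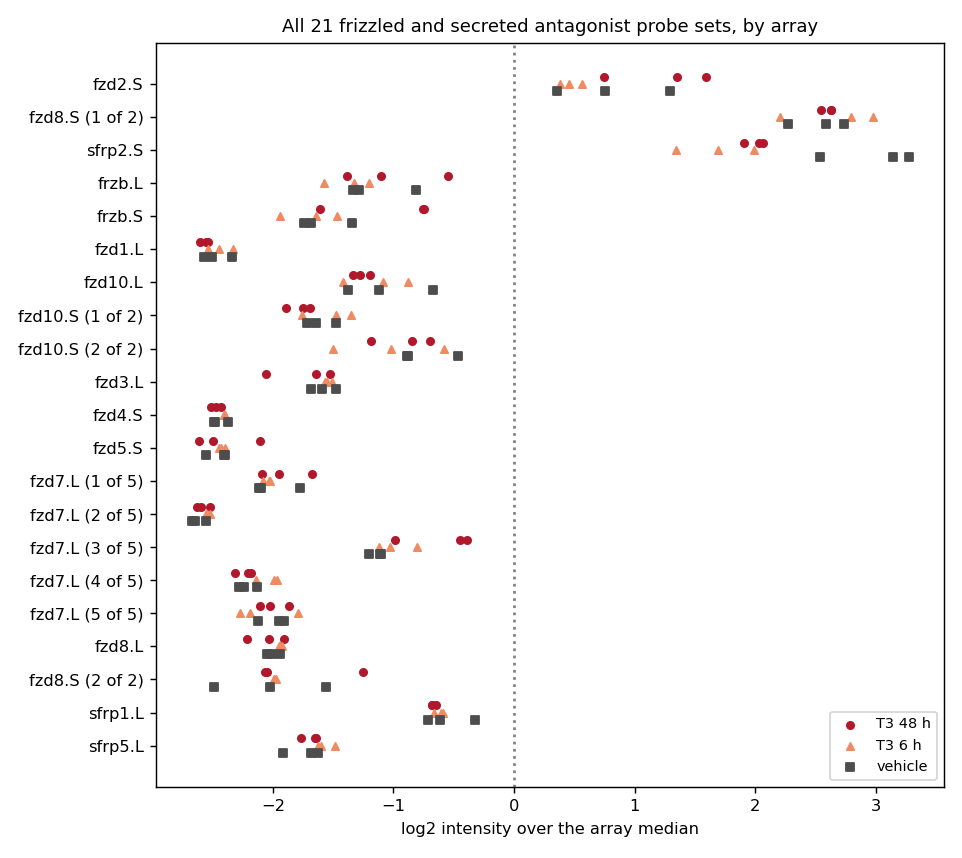
Log2 intensity over the array median (horizontal axis) of all 21 family probe sets, 1 point per array, with each group on its own line. The dotted line at 0 is the array median. The 3 uppermost rows passed the level filter, and the 18 below it lie between -2.67 and -0.32 on all 9 arrays.

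The 18 family probe sets below the array median ran from -2.67 to -0.32 over all arrays. The files hold no detection calls, so a value there may be background, and a difference there depends on the background correction. They were read from a limma fit of all 15491 probe sets, in which 3.91% passed at T3 48 h against vehicle, 0.0129% at T3 6 h against vehicle and 8.54% at T3 48 h against T3 6 h. None of the 18 passed in any of the 3 comparisons in that fit, where 2, 1 and 3 of them had an unadjusted p under 0.05. The share with such a p was not counted over all probe sets. The lowest adjusted p of the 18 was 0.0996, 0.370 and 0.108. Over the 18 the median difference was log2 -0.01, 0.04 and -0.04, beside -0.02, 0.04 and -0.07 over all probe sets.

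Among the receptors, fzd7.L had 5 probe sets, whose differences varied. Frizzled 7 is a maternal and gastrula-stage Wnt receptor in Xenopus. The probe set with the lowest adjusted p read -0.45, -0.99 and -0.39 at T3 48 h, -0.81, -1.12 and -1.03 at T3 6 h, and -1.10, -1.11 and -1.21 in vehicle. For this probe set T3 48 h minus vehicle was log2 0.53, with a 95% interval of 0.17 to 0.89 (adjusted p = 0.0996 in limma). The other 4 fzd7.L probe sets gave log2 differences of 0.09, 0.04, -0.02 and -0.01 for T3 48 h minus vehicle. Of these 4, 1 was at log2 0.19 at T3 6 h against vehicle (interval 0.03 to 0.34, adjusted p = 0.370 in limma). Its T3 48 h minus T3 6 h was log2 -0.20 (adjusted p = 0.108).

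For the remaining receptor probe sets below the median, the 95% intervals of the differences from vehicle contained 0 at both times. For fzd10.L the T3 48 h, T3 6 h and vehicle means were -1.27 ± 0.07, -1.13 ± 0.27 and -1.05 ± 0.36 (SD, n = 3). The 2 probe sets of fzd10.S gave log2 -0.17 each for T3 48 h minus vehicle, and 0.08 and -0.29 for T3 6 h minus vehicle. Frizzled 3, a receptor of the planar polarity branch, was read by fzd3.L at -1.74 ± 0.28, -1.54 ± 0.03 and -1.59 ± 0.10 in T3 48 h, T3 6 h and vehicle tails. Below -2 on every array lay fzd1.L, fzd4.S, whose product also binds the ligand Norrin, and fzd5.S, for a receptor known from the developing retina. T3 48 h minus vehicle was log2 -0.09 for fzd1.L, -0.03 for fzd4.S and 0.05 for fzd5.S. The fzd8.L probe set gave -0.05, and the fzd8.S probe set below the filter 0.23, with T3 48 h arrays at -1.25, -2.05 and -2.07 and vehicle arrays at -2.49, -1.56 and -2.02.

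The other antagonists were also below the median. For frzb.S, T3 48 h arrays read -1.61, -0.75 and -0.76, T3 6 h arrays -1.64, -1.94 and -1.47, and vehicle arrays -1.68, -1.34 and -1.74. T3 48 h arrays 2 and 3 lay above all arrays of the other groups and array 1 among them, and T3 48 h minus vehicle was log2 0.55, with an interval of 0.04 to 1.07 (adjusted p = 0.204). Its homeolog frzb.L gave log2 0.13 for T3 48 h minus vehicle and -0.22 for T3 6 h minus vehicle, with T3 48 h arrays at -0.55, -1.38 and -1.10. T3 48 h array 1 was thus the highest of its group on frzb.L and the lowest on frzb.S. Homeologs can share probes, so values of such pairs are uncertain.

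Values for sfrp1.L, a broadly acting Wnt-binding antagonist, were -0.67 ± 0.02, -0.62 ± 0.04 and -0.55 ± 0.20 in T3 48 h, T3 6 h and vehicle tails (SD, n = 3). Those for sfrp5.L, which in Xenopus embryos is known from the foregut endoderm, were -1.69 ± 0.07, -1.57 ± 0.08 and -1.74 ± 0.16. The log2 differences from vehicle were -0.12 at T3 48 h and -0.07 at T3 6 h for sfrp1.L, and 0.05 and 0.17 for sfrp5.L. The 95% intervals of these 4 differences lay between -0.39 and 0.38 and all contained 0. None of the 4 other antagonists differed from vehicle by as much as sfrp2.S, which was at -0.98 at T3 48 h and -1.31 at T3 6 h. Nothing is read from this, because the family was proposed from the value of sfrp2.S. The 4 also lay at levels where a change may not register. Outside the family, wif1.S was at log2 -1.10, sfrpx.S at -0.52 and dkk2.L at 0.83 at T3 48 h against vehicle. At T3 6 h against vehicle these were at -0.21, -0.10 and -0.31.

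**Figure D3:**
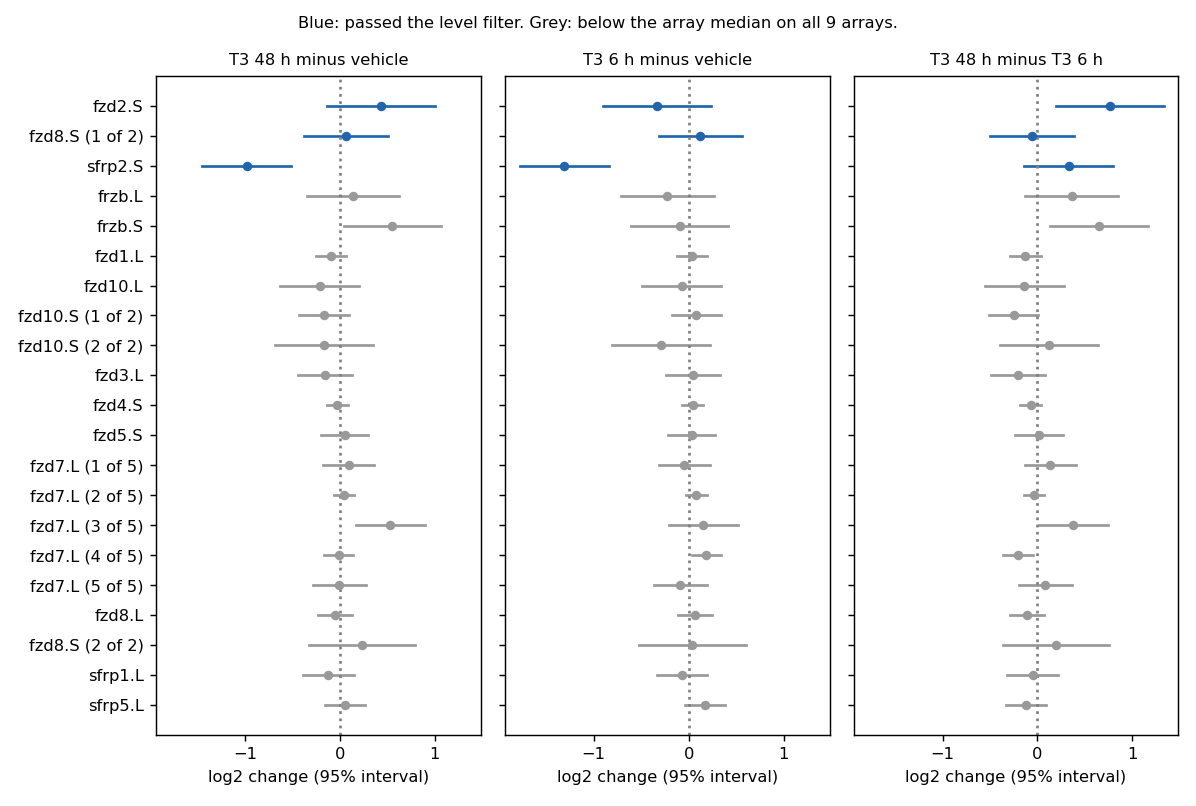
Log2 change (horizontal axis) with its 95% interval from limma for all 21 family probe sets in the 3 comparisons. Against vehicle sfrp2.S was at -0.98 at T3 48 h and -1.31 at T3 6 h, and probe sets in grey were below the array median on all 9 arrays. The intervals of sfrp2.S and fzd2.S are a description, since their values were known when the family was chosen.

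The rest of the Wnt pathway was read from 6 lists by role, which held 155 genes and matched 179 probe sets outside the family, 82 of them above the level filter. At T3 48 h against vehicle 3 of the 82 rose and 2 fell, or 6.10%, beside 11.0% of all tested probe sets. At T3 6 h against vehicle limma called 0 of 82, beside 0.222% of all tested probe sets. Of the 82, 9 had an unadjusted p under 0.05, a share that was not counted over all probe sets. At T3 48 h against T3 6 h, 5 were higher and 10 lower, or 18.3%, beside 19.4% of all. Nothing particular to the Wnt lists is read from these shares. Single arrays moved the counts. Against vehicle at T3 48 h, 14 passed on leaving out T3 48 h array 1, 2 on leaving out vehicle array 1, and 3 on leaving out vehicle array 2 or 3 or T3 48 h array 2 or 3. Between both times 25 passed on leaving out T3 48 h array 1, 6 or 7 on leaving out T3 48 h array 2 or 3, and 7, 10 and 8 on leaving out T3 6 h array 1, 2 or 3. The medians of the 82 were log2 -0.01, 0.05 and -0.02, beside -0.05, 0.03 and -0.06 over all tested. T3 48 h and T3 6 h against vehicle share the vehicle arrays, and T3 48 h against T3 6 h shares arrays with both.

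Most Wnt ligands were below the array median in these tails. Of 19 probe sets on the list of ligands and their secretion, 3 were tested, those of wnt11.S, wls.L and wls.S. Among those below the filter, named after their values were seen, wnt3a.S was at log2 -1.21 at T3 48 h against vehicle and wnt7b.L at -0.56. Neither passed in the limma fit of all probe sets (adjusted p = 0.0954 and 0.0689). The largest difference in the other direction was log2 0.30, for wnt5a.S. Of the vehicle arrays of wnt3a.S, arrays 2 and 3 lay above the array median. The cargo receptor wls.L, which carries Wnt proteins to the cell surface, was higher at T3 48 h than at T3 6 h (log2 0.45 ± 0.14 SE, adjusted p = 0.0463), and at log2 0.41 against vehicle (adjusted p = 0.0809). Leaving out any vehicle array, T3 6 h array 1 or 2, or T3 48 h array 2 or 3 ended its call (adjusted p = 0.0630 to 0.155).

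On the list of co-receptors and receptor turnover, 7 of 15 probe sets were tested. The glypican gpc4.L, a heparan sulfate proteoglycan that assists Wnt signalling at gastrulation in Xenopus, rose at T3 48 h against vehicle (log2 0.53 ± 0.13 SE, adjusted p = 0.0352) and against T3 6 h (0.55 ± 0.13, adjusted p = 0.0190). Leaving out any vehicle array, T3 6 h array 1 or 3, or T3 48 h array 2 or 3 ended its call against vehicle (adjusted p = 0.0501 to 0.114). Its call against T3 6 h was lost without T3 6 h array 1 or 2 or T3 48 h array 2 or 3 (0.0511 to 0.0699). Another gpc4.L probe set, below the array median on every array, was at log2 -0.06 at T3 48 h against vehicle and -0.03 against T3 6 h. The syndecan sdc4.L was lower at T3 48 h than at T3 6 h (log2 -0.51 ± 0.15, adjusted p = 0.0412) in 1 of its 3 tested probe sets. That call ended on leaving out vehicle array 3, any T3 6 h array, or T3 48 h array 1 or 2 (0.0518 to 0.148). Against vehicle this probe set was at log2 0.37 at T3 6 h and -0.14 at T3 48 h, and neither passed.

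On the list of other Wnt antagonists, calls went in both directions. Being on the list does not give the sign of a gene's effect on Wnt signalling in these tails, which was not measured. Of its 10 probe sets 3 were tested, those of dkk2.L, wif1.S and kremen2.S. For dkk2.L, a Dickkopf protein that binds Lrp co-receptors, the arrays read 2.11, 2.55 and 2.31 at T3 48 h, 1.20, 1.19 and 1.16 at T3 6 h, and 1.26, 1.76 and 1.45 in vehicle. The T3 48 h arrays lay above all others, by log2 0.83 ± 0.16 SE against vehicle (1.78-fold, adjusted p = 0.0129) and 1.14 ± 0.16 against T3 6 h (2.21-fold, adjusted p = 0.00168). Without vehicle array 1 the call against vehicle was lost (adjusted p = 0.0543).

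For wif1.S, Wnt inhibitory factor 1, a secreted protein that binds Wnt ligands directly, the arrays read 0.07, -0.16 and 0.02 at T3 48 h, 0.78, 1.01 and 0.81 at T3 6 h, and 1.35, 1.21 and 0.67 in vehicle. Lowest of all were the T3 48 h arrays, by log2 -1.10 ± 0.18 SE against vehicle (2.14-fold lower, adjusted p = 0.00699) and -0.89 ± 0.18 against T3 6 h (adjusted p = 0.00811). Both calls held in the 9 fits without an array. Neither dkk2.L nor wif1.S passed at T3 6 h against vehicle, with log2 -0.31 for dkk2.L and -0.21 for wif1.S (adjusted p = 0.374 and 0.617).

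Inside the cell, 26 of 53 probe sets of transducers were tested. The dishevelled-binding protein dact1.L (Dapper) read 1.12, 1.44 and 0.90 at T3 48 h, -0.95, -0.22 and -0.47 at T3 6 h, and -0.10, 0.05 and 0.13 in vehicle. The T3 48 h arrays lay above all others and the T3 6 h arrays below all others. It rose at T3 48 h by log2 1.13 ± 0.20 SE against vehicle (adjusted p = 0.0113) and by 1.70 ± 0.20 against T3 6 h (adjusted p = 0.00104), calls that held in the 9 fits without an array. T3 6 h minus vehicle was -0.57 (adjusted p = 0.224). Its T3 6 h arrays lay below the array median, so the size of its change depends on the background correction.

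The ATPase ruvbl2 (Reptin), which binds beta-catenin among many other partners, was lower at T3 48 h than at T3 6 h for both homeologs, by log2 -1.24 ± 0.24 SE for ruvbl2.S and -0.90 ± 0.18 for ruvbl2.L (adjusted p = 0.00731 and 0.00870). Neither homeolog passed against vehicle at T3 48 h (log2 -0.45 and -0.61, adjusted p = 0.235 and 0.0587). At T3 6 h against vehicle they were at log2 0.78 and 0.30, and neither passed (adjusted p = 0.167 and 0.464). The corepressor tle2.L, of the Groucho family, fell at T3 48 h against vehicle (log2 -0.57 ± 0.13, adjusted p = 0.0259), and was named after its value was seen. Its call was lost without any vehicle array or without T3 48 h array 2 or 3 (adjusted p = 0.0588 to 0.0803).

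On the target list 7 of 26 probe sets were tested, and 0 were called against vehicle at either time. At T3 48 h against vehicle 3 were positive and 4 negative, with a median of log2 -0.19, beside -0.05 over all tested probe sets. At T3 6 h against vehicle 1 was positive and 6 negative, with a median of -0.40, beside 0.03. There 2 had an unadjusted p under 0.05 in limma, a share that was not counted over all probe sets. The named axin2.S is thus 1 of 7 and does not stand for the list. For axin2.S, a feedback inhibitor whose transcription is a common readout of beta-catenin signalling, the arrays read 0.17, 0.14 and 0.28 at T3 48 h, -1.13, -0.15 and -0.57 at T3 6 h, and -0.11, -0.17 and -0.36 in vehicle. It passed the level filter only through its 3 T3 48 h arrays, the group where it is high, so its difference of log2 0.81 ± 0.22 SE from T3 6 h, which is among the calls counted, is given as a description. Against vehicle it was at log2 0.41 at T3 48 h and -0.40 at T3 6 h.

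On the planar polarity and calcium list 36 of 56 probe sets were tested, and 0 passed against vehicle at either time. An unadjusted p under 0.05 in limma was met by 6 at T3 48 h and 3 at T3 6 h, shares that were not counted over all probe sets. At T3 48 h 4 were lower than at T3 6 h, all probe sets of the calcium-dependent kinase camk2g.S, which share a source gene. The probe set at log2 -0.59 passed the level filter only through its 3 T3 6 h arrays, the group where it is high, and is given as a description. The next by adjusted p were at log2 -0.54 and -0.53 (adjusted p = 0.0319 and 0.0469). The call of the probe set at -0.54 was lost without any T3 6 h array or T3 48 h array 2 or 3 (0.0669 to 0.111). That at -0.53 was lost without any array but T3 48 h array 1 (0.0530 to 0.144). In order of adjusted p, the 4 camk2g.S probe sets were at log2 0.46, 0.40, 0.30 and 0.28 at T3 6 h against vehicle. At T3 48 h against vehicle they were at log2 -0.13, -0.14, -0.23 and -0.27.

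**Figure D4:**
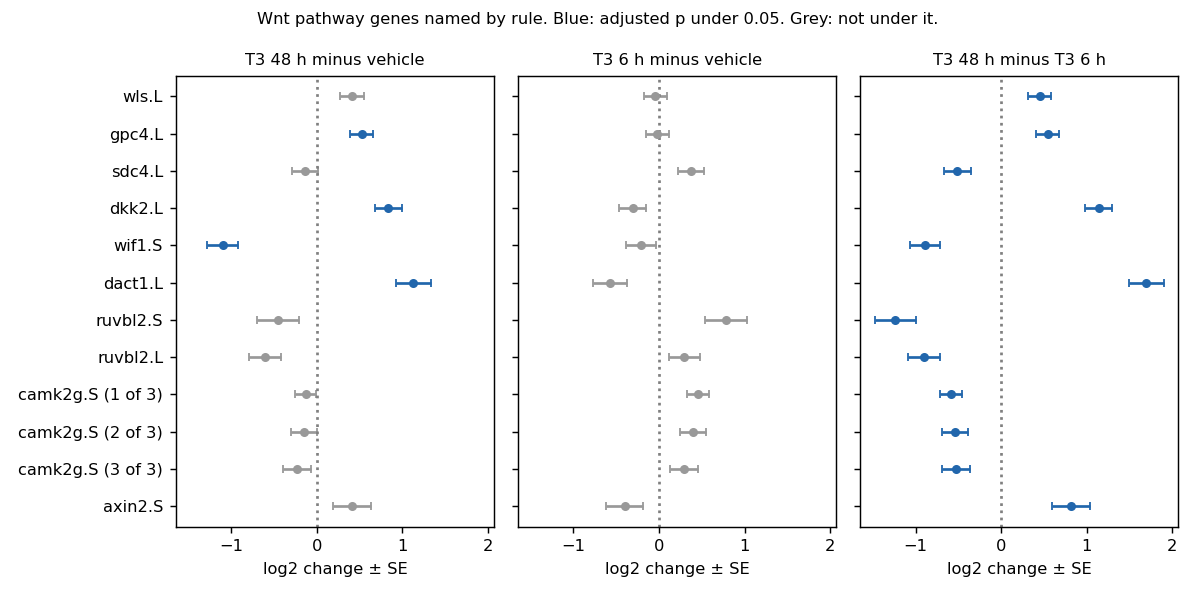
Log2 change ± SE (horizontal axis) of the 12 Wnt pathway probe sets named by rule, in the 3 comparisons, with several probe sets of a gene numbered. For T3 48 h minus vehicle, gpc4.L, dkk2.L and dact1.L passed higher and wif1.S passed lower. For T3 6 h minus vehicle none of the 12 passed. For T3 48 h minus T3 6 h, axin2.S and the first camk2g.S probe set had passed the level filter only through the group where they are high. The dact1.L probe set needed its T3 48 h arrays, where it is high, to pass the filter.

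Markers of connective tissue cells read below vehicle beside sfrp2.S at T3 6 h, without passing the test, and above their T3 6 h values at T3 48 h. Of 16 probe sets on the fibroblast and mesenchyme list 13 were tested, among them those of col1a1.S, col1a2.L, col3a1.S, lum.L, pdgfra.L, fn1.S and vim.L, with 4 for fn1.S alone. At T3 6 h against vehicle 13 of 13 were negative, 0 of them called in limma and 5 at an unadjusted p under 0.05. Their median was log2 -0.30, beside 0.03 over all tested probe sets. The shares of all tested probe sets that were negative or had such a p were not counted. Probe sets of 1 gene are not separate markers. Their summed intensity was 510 to 646 on T3 6 h arrays and 647 to 782 on vehicle arrays, in multiples of the array median. At T3 48 h against vehicle the median was 0.13, and the sums were 697 to 827 at T3 48 h and 647 to 782 in vehicle. There 2 probe sets of fn1.S rose and 0 fell, beside 4.94% and 6.04% of all tested probe sets. Leaving out any vehicle array or T3 48 h array 2 ended both fn1.S calls, and T3 48 h array 3 ended 1 of them (adjusted p = 0.0700 to 0.107). Between T3 48 h and T3 6 h 13 of 13 were positive, with a median of 0.56, beside -0.06 over all tested probe sets and 0.76 for fzd2.S. Other cell type lists also differed in this comparison, as given below. Of the 13, 6 passed higher, beside 7.51% of all tested probe sets. The 3 fn1.S calls among the 6 held in the 9 fits without an array, and those of pdgfra.L and vim.L did not. No marker was listed at 0, and col5a1.L was below the array median on every array. The part of these cells in the values of sfrp2.S and fzd2.S at 6 h was not tested.

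Erythroid markers stood higher on the same T3 6 h arrays. The 5 tested globin probe sets were all positive against vehicle, with 0 called in limma, 4 at an unadjusted p under 0.05 and a median of log2 1.07. Their sums were 429 to 772 on T3 6 h arrays and 305 to 372 on vehicle arrays. In the same comparison 6 of 7 epidermis and 12 of 16 muscle probe sets were positive. Of these lists 0 were called, with 3 of each at an unadjusted p under 0.05. For all cell type lists, the shares over all tested probe sets with such a sign or such a p were not counted. At T3 48 h against vehicle the 5 globin probe sets were also all positive, with 0 called in limma, 2 at an unadjusted p under 0.05 and a median of log2 0.52. Their sums were 338 to 595 on T3 48 h arrays. In that comparison the cell type lists with probe sets called lower, as sfrp2.S was, were notochord and cartilage, epidermis, and neural. Called lower were 4 of 5, 2 of 7 and 2 of 9 tested, beside 6.04% of all tested probe sets. The notochord and cartilage sums were 8.05 to 21.7 at T3 48 h against 24.3 to 38.7 in vehicle. The 4 notochord and cartilage calls ended on leaving out vehicle array 1 or 2 or T3 48 h array 2 or 3. Those of col2a1.S, col9a1-b and col9a1.L also ended without vehicle array 3, and that of col9a1-b without any T3 6 h array. In the fits that ended these calls, adjusted p was 0.0504 to 0.130 in limma. Both epidermis calls, of larval keratin krt12.4, held in the 9 fits without an array. These probe sets passed the level filter only through vehicle and T3 6 h arrays, the groups where they are high. Both lay below the array median on every T3 48 h array, so the size of their change depends on the background correction. The neural calls, of syt1.L and tubb3.L, ended on leaving out any vehicle array or T3 48 h array 2, and that of syt1.L also T3 48 h array 3 (adjusted p = 0.0693 to 0.104). The epidermis sums were 70.2 to 92.2 and 85.7 to 107, and the neural sums 73.4 to 88.6 and 78.2 to 92.1. Muscle had 0 of 16 called in limma, with 0 at an unadjusted p under 0.05 and a median of 0.03. Leukocytes had 0 of 7 called, with 1 at an unadjusted p under 0.05. At T3 48 h against T3 6 h, called lower were 4 of 5 notochord and cartilage and 4 of 7 epidermis probe sets. So were 2 of 9 neural and 1 of 16 muscle probe sets, beside 11.9% of all tested. The 4 medians were log2 -1.74, -0.94, -0.43 and -0.06. Single arrays ended the calls of col9a1-b, nefl.L, syt1.L and myl1.L. Of these, nefl.L passed the level filter only through its T3 6 h arrays, where it is high. The part of these cell types in the values of the family was not tested.

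Likeness to sfrp2.S was measured as the root mean square difference of log2 values over the 9 arrays, each probe set first set to a mean of 0, among 5569 tested probe sets with 1 gene symbol. The 5 nearest were ccn1.S (0.27), a matricellular protein, tnc.L (0.29), the matrix glycoprotein tenascin C, fam102a.L (0.34), acta2.L (0.35), the smooth muscle actin, and tmem52.L (0.36). The median distance of all was 0.66. In each of the 5, all T3 arrays at both times lay below all vehicle arrays, as they did for sfrp2.S. For ccn1.S the arrays read 2.31, 2.67 and 2.46 at T3 48 h, 1.86, 2.15 and 2.12 at T3 6 h, and 3.05, 3.69 and 2.83 in vehicle. These genes were picked for their profile, so their differences are a description: T3 6 h minus vehicle was log2 -1.15 for ccn1.S, -1.08 for tnc.L, -0.72 for fam102a.L, -0.87 for acta2.L and -0.75 for tmem52.L.

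The 5 probe sets nearest to fzd2.S were 2 of hes4.S (0.13 and 0.19), a Hairy-type transcriptional repressor, epb41l1.S (0.19), a cytoskeletal linker, cdo1.S (0.20), cysteine dioxygenase, and acvr1.L (0.20), a type I BMP receptor, against a median distance of 0.51. The nearest hes4.S probe set read 2.58, 2.58 and 2.03 at T3 48 h, 1.43, 1.43 and 1.40 at T3 6 h, and 1.83, 2.42 and 1.58 in vehicle. As in fzd2.S, T3 48 h array 3 was the lowest T3 48 h array, and vehicle array 2 was the highest vehicle array and array 3 the lowest. The likeness therefore includes differences between arrays of 1 group as well as between groups.

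**Figure D5:**
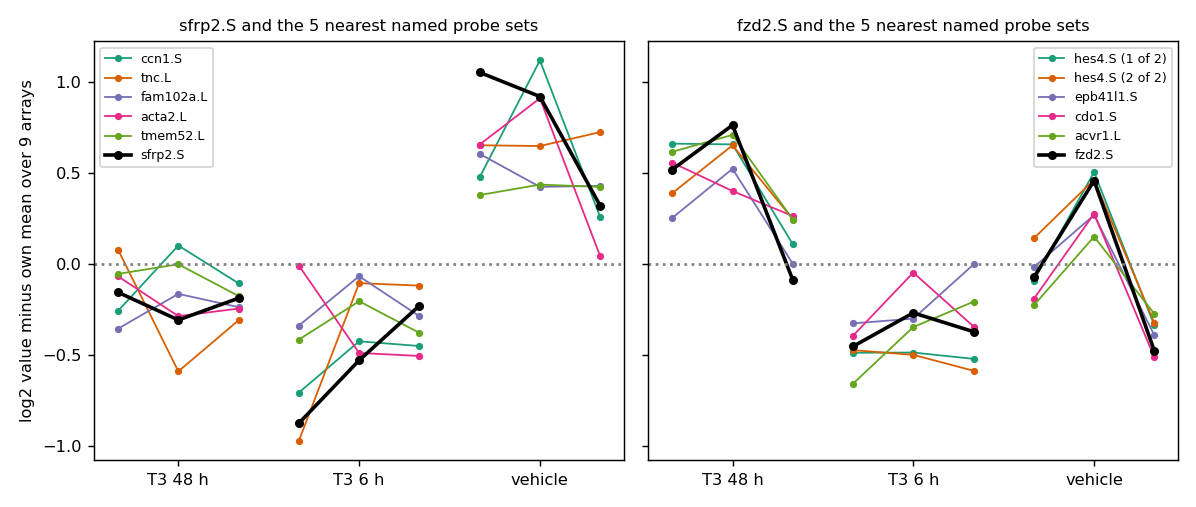
Log2 value minus its own mean over the 9 arrays (vertical axis) for sfrp2.S and fzd2.S (black) and the 5 nearest probe sets of each (colours), by array in the order 1 to 3 within each group. Lines join arrays of a group and have no order in time. For sfrp2.S and its neighbours all T3 arrays lie below all vehicle arrays of the same probe set, and for fzd2.S vehicle array 2 is the highest vehicle array.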

How the data were processed

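Total RNA from pools of 3 tails was hybridised to 9 Affymetrix Xenopus laevis arrays. The deposited values are linear intensities made with GCRMA, per the submitters' processing notes, and each column has a median of 1. Its version and other steps are not given in the sources used here. The log2 of the deposited intensities was taken. Of 15611 probe sets, 120 controls were left out, and 8123 of 15491 passed the level filter (log2 0 on at least 3 arrays). Symbols came from the platform annotation (9304 probe sets with 1 gene, 195 with several, 5992 with none), and 9227 matched a RefSeq table of Xenopus_laevis_v10.1, which updated 2 symbols. Group was the only factor in limma 3.58.1 (R 4.3.3) over 9 arrays, with eBayes and an intensity trend, two-sided tests and Benjamini-Hochberg adjustment over all tested probe sets at 0.05. The procedure was tested on simulated data. Members below the filter were read from a fit of all probe sets. Alternatives changed the filter, normalization, variance model, weights, arrays and replicate block.

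The members and lists were chosen with earlier results of these data known. All members are given. In the Wnt lists the called probe sets with the lowest adjusted p, at most 3 per list, are named, and for likeness the 5 nearest. The level filter was set knowing the scale of the values. No sequence is shown here.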

Additional observations from a re-analysis of the deposited data

Results flagged for a closer look

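The T3 48 h against T3 6 h comparison equals the T3 48 h difference from vehicle minus the T3 6 h difference from the same vehicle arrays. All vehicle tails were kept for 48 h, so time in T3 and time in the container cannot be told apart in it. The 12 Wnt pathway probe sets named by rule passed this comparison. Only probe sets with a call in some comparison were named, so this number reflects the naming. Of the 82 tested, 15 passed, or 18.3%, beside 19.4% of all tested probe sets. Higher at T3 48 h than at T3 6 h were dact1.L (log2 1.70), dkk2.L (1.14), axin2.S (0.81), gpc4.L (0.55) and wls.L (0.45). Lower were ruvbl2.S (-1.24), ruvbl2.L (-0.90), wif1.S (-0.89), the 3 camk2g.S probe sets (-0.59, -0.54 and -0.53) and sdc4.L (-0.51). Of the 12, axin2.S and the camk2g.S probe set at -0.59 passed the level filter only through the 3 arrays of the group where they are high, so their calls show no more than their values. The dact1.L probe set also needed its T3 48 h arrays, where it is high, to pass the filter. Groups of 3 arrays are too small for a search for outlying arrays.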

How the results depend on the processing

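At T3 6 h against vehicle the 1 family call, sfrp2.S, was 0 without a level filter, under quantile normalization, with only the arrays compared and with the replicate block, and 0 to 1 without single arrays. The log2 value stayed between -1.53 and -1.15 without single arrays. At T3 48 h against vehicle the count of 1 ran from 0 to 1 without single arrays and was 1 under the 8 other alternatives. For T3 48 h against T3 6 h the count of 0 became 1, fzd2.S, with the replicate block, and ran from 0 to 1 without single arrays. Of 82 Wnt pathway probe sets, 5 called at T3 48 h against vehicle became 13 with array weights and 3 with only the arrays compared, ran from 2 to 14 without single arrays and was 14 without T3 48 h array 1, a setting also listed after the data had been seen. The 0 at T3 6 h became 3 with array weights and was 0 without single arrays. The 15 at T3 48 h against T3 6 h became 30 with array weights and 7 with only the arrays compared, and ran from 6 to 25 without single arrays. The causes were not tested. The labels do not say if replicate numbers pair the samples. Deviations of same-numbered arrays correlated at -0.13 to 0.10, which with 3 arrays a group cannot settle it. The replicate block is therefore only a numbering. Over all tested probe sets the calls without single arrays were 256 to 1912 at T3 48 h against vehicle (892 with all arrays), 0 to 99 at T3 6 h against vehicle (18) and 869 to 2093 between both times (1578). With array weights they were 1979, 547 and 2677. With only the arrays compared they were 494 and 66 against vehicle. The count at T3 6 h was also 2 without a filter, 1 under quantile normalization and 0 with the replicate block. Of 261 log2 values of family members under alternatives, 242 stayed on the same side of the threshold, 15 of sfrp2.S lost and 4 of fzd2.S gained a call, and 20 uncalled values changed sign. Nothing is read from the calls of sfrp2.S and fzd2.S, whose values were known when the family was proposed. Members below the filter were rerun under quantile normalization and centring only. The alternatives for the other named genes were added after their values were seen. The files used hold no detection calls, so values below the array median may be background.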

Other observations

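A related gene outside the naming rule, sfrpx.S, lay above the array median on all 9 arrays and was looked at after its values were seen. It read 0.60, 0.37 and 0.71 at T3 48 h, 1.0, 0.98 and 0.97 at T3 6 h, and 1.16, 1.31 and 0.78 in vehicle. Its T3 48 h arrays lay below all arrays of the other groups, by log2 -0.52 ± 0.16 SE against vehicle (adjusted p = 0.0567 in limma) and -0.43 ± 0.16 against T3 6 h (adjusted p = 0.0809), and neither passed. At T3 6 h it was at log2 -0.10 against vehicle (adjusted p = 0.804). Both probe sets of frzb2.L, another secreted frizzled-like gene outside the rule, were below the array median on every array, at -2.47 to -1.66.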
